A study of Mus musculus with 35 samples.

Results

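The collagen genes of the mouse liver were followed through the later hours of regeneration after partial hepatectomy (PH), an operation that took away 70% of the organ. A gene was taken as a collagen where its symbol in the platform annotation consists of Col, a number, the letter a and a number, and only probe sets with a single gene symbol were used. By this rule 42 of the 18193 genes on the arrays are collagens, each represented by its brightest probe set, judged by the mean of the 35 arrays. Of these, 11 are fibrillar collagens (types I, II, III, V, XI, XXIV and XXVII), 6 are type IV chains of the basement membrane, 2 are the multiplexins Col15a1 and Col18a1 of the basement membrane zone, 5 are type VI chains, 9 are fibril-associated (FACIT) collagens, 3 are short-chain network collagens, 4 are transmembrane collagens and 2 belong to other classes. The choice of genes used no measured change.

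All mice were males of the CB6F1 hybrid strain, young (5 to 6 months) or old (25 to 27 months). The young mice came from Jackson Laboratories and the old mice from the National Institute on Aging, so that age and supplier cannot be told apart. Livers were collected without surgery (0 h) and at 24, 38 and 48 h after PH or after a sham operation, in which the liver was handled and not resected. The 14 groups hold 3 arrays each at 0 h and after PH, 2 each after sham surgery, and 1 for the young sham group at 38 h. Whether the arrays of a group came from separate animals is not given in the sources used here, and the p-values below measure the spread between these samples only.

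Collagens are triple-helical proteins of the extracellular matrix. Fibrillar types I, III and V assemble into the fibers that give tissue its tensile strength and that accumulate in liver scars, and in the liver they are made chiefly by stellate cells and portal fibroblasts. Type IV collagen, built mainly from the Col4a1 and Col4a2 chains, forms the sheet-like network of basement membranes, to which laminins, nidogens and perlecan attach. In the hepatic sinusoid this network is discontinuous. Col18a1 is an abundant product of hepatocytes whose C-terminal fragment is endostatin.

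Col4a1 and Col4a2 lie head to head on chromosome 8, and Col1a2 and Col3a1 are among the fibrillar genes for which a promoter window was given. Their windows, from 250 bases before to 50 bases after the start of the gene, are shown because those of Col4a1 and Col4a2 overlap, with Col1a2 and Col3a1 beside them as fibrillar genes; sequences and positions are RefSeq's on build GRCm38.p6, 5′ to 3′ on the gene's own strand. In the type IV pair the capitals mark the 78 bases that both windows share, and in the fibrillar pair they mark the motif matches.
Col4a1: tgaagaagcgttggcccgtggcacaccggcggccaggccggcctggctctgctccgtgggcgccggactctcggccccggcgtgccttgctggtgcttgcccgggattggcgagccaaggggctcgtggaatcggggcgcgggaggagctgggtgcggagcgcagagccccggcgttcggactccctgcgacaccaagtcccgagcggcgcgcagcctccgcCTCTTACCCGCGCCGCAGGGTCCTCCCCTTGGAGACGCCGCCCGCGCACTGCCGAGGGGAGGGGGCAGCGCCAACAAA
Col4a2: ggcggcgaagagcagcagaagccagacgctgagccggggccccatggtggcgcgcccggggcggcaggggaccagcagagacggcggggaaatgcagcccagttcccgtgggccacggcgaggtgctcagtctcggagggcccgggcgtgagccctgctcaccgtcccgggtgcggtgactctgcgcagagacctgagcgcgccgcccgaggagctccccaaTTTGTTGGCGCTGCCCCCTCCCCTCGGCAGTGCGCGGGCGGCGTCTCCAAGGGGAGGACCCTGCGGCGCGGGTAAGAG
Col1a2: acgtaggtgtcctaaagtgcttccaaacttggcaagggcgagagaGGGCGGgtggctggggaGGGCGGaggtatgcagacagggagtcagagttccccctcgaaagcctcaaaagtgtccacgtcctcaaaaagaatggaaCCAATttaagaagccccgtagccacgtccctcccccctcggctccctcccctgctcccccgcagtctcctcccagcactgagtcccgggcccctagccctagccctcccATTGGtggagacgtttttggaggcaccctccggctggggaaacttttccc
Col3a1: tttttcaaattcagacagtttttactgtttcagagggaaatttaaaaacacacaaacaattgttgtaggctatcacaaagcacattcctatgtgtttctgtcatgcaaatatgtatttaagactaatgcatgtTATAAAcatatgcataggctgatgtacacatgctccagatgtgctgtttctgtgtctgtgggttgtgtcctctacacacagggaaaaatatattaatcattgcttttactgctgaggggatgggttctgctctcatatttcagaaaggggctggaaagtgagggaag

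The Col4a1 window is chr8:11312777-11313076 on the minus strand and the Col4a2 window chr8:11312555-11312854 on the plus strand. Their annotated starts are 21 bases apart, and the shared stretch appears in the second window as the reverse complement of the first. The Col1a2 window is chr6:4505368-4505667 and the Col3a1 window chr1:45311288-45311587, both on the plus strand. Each window was searched on both strands for the GC box, spelled GGGCGG. The CCAAT box, by those letters, was searched in the same way. The search for a TATA box used the letters TATAAA. The Col4a1 window held 1 GC box and 1 CCAAT box, the Col4a2 window 3 GC boxes and 1 CCAAT box, and the Col1a2 window 2 of each. The Col3a1 window held only 1 TATAAA. Of 32851 such windows in the table, 35.7% held GGGCGG, 37.4% held CCAAT and 13.6% held TATAAA, so that these matches are common and are given as a description. The GC content of the windows was 74% for Col4a1, 73.7% for Col4a2, 61% for Col1a2 and 37.7% for Col3a1. The windows of the other fibrillar genes held from 56.3% (Col24a1) to 75% (Col5a1), and those of the type IV genes Col4a5 and Col4a6 held 52.7% and 48.3%. The windows shown therefore do not stand for their classes.

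Expression is given as deposited, on the log2 scale, and a change is a difference of group means on that scale with its standard error (SE). Tests are from limma over all 18193 genes with Benjamini-Hochberg adjustment within each comparison, and a gene is said to rise or fall where the adjusted p was below 0.05. A brightness on an array depends on the probe, so that levels are compared between samples and not between genes. Where all arrays of a group lie beyond those of another, the share of all genes is given only where it was counted. The tissue bore out its label, since 6 of 6 hepatocyte markers, among them albumin (Alb) and transthyretin (Ttr), had mean levels at the 98.5th percentile of all genes or above. Each liver sample is a mixture, and a lower level may reflect fewer cells of a type or less RNA per cell, which cannot be told apart here.

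Counted over all collagens, the calls were few and mostly upward. Against sham, young mice had 0 called at 24 h (0.709% of all genes were called). At an unadjusted p below 0.05 in limma there were 7 collagens (12.7% of all genes), Col4a1 and Col4a2 among them. In young mice at 38 h 2 collagens rose (4.6% of all genes) and 1 fell (1.47%), and at 48 h 2 rose (11.1%) and 1 fell (7.3%). In old mice 3 rose at 24 h (7.51%) and 1 at 38 h (2.3%), while at 48 h 7 rose (8.46%) and 2 fell (6.56%).

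Against 0 h, 9 collagens rose in young mice at 24 h (7.82% of all genes), 12 at 38 h (15.2%) and 9 at 48 h (13.4%), and 1 fell at each time (9.56%, 16.5% and 14.5%). In old mice 5 rose at 24 h (11.7%), 8 at 38 h (21.9%) and 7 at 48 h (8.28%), and 2, 2 and 1 fell (12.6%, 16.6% and 8.62%). The 3 unoperated arrays of an age serve all its times, and the comparisons with sham and with 0 h share their PH arrays. The median change of all 42 against 0 h ran from 0.05 to 0.20, beside -0.01 to 0.08 for all genes. Sham surgery itself, with its 3 times averaged and set against 0 h, gave 10 rises in young mice (16.5% of all genes) and 9 in old mice (15.7%). Each age had 1 fall after sham surgery (17.1% and 12.6%), that of Col14a1. Over the 12 PH comparisons 22 collagens were called in at least 1, and 20 in none. Of the 42, 18 lay below the array median on every array and 11 at or above it on every array.

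The type IV chains Col4a1 and Col4a2 showed the clearest separation of resected from other livers. In young mice Col4a1 stood at 9.41, 9.52 and 9.23 at 0 h. Sham-operated young livers had 9.11 and 9.31 at 24 h, 8.18 at 38 h and 9.54 and 8.81 at 48 h. After PH the young livers had 11.27, 10.15 and 10.57 at 24 h, 11.00, 10.98 and 10.02 at 38 h, and 10.55, 10.38 and 10.62 at 48 h. All 9 young PH arrays were above all 8 other young arrays.

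In old mice Col4a1 was 9.16, 9.42 and 9.10 at 0 h. The old sham livers gave 8.90 and 9.35 at 24 h, 8.82 and 9.35 at 38 h, and 8.86 and 8.66 at 48 h. Old PH livers reached 12.30, 11.53 and 10.95 at 24 h, 10.08, 9.91 and 11.99 at 38 h, and 10.69, 10.18 and 10.21 at 48 h. The lowest of all 18 PH arrays of both ages, at 9.91, was above the highest of the 17 other arrays, at 9.54.

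Its partner chain Col4a2 followed the same order. Col4a2 was 9.37, 9.30 and 9.32 in young and 9.23, 9.32 and 8.84 in old livers at 0 h, and the 11 sham arrays ran from 8.48 to 9.21. Young PH livers had 10.62, 9.75 and 10.02 at 24 h, 10.38, 10.50 and 9.76 at 38 h, and 10.31, 9.99 and 9.99 at 48 h. Old PH livers had 11.08, 10.67 and 10.01 at 24 h, 9.61, 9.44 and 10.64 at 38 h, and 10.10, 9.66 and 10.04 at 48 h. Again every PH array exceeded every other array, the lowest PH value being 9.44 and the highest other value 9.37. These are the only 2 of the 42 collagens with all 18 PH arrays above all 17 others, a pattern that 0.401% of all genes (73 of 18193) show.

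**Figure D1:**
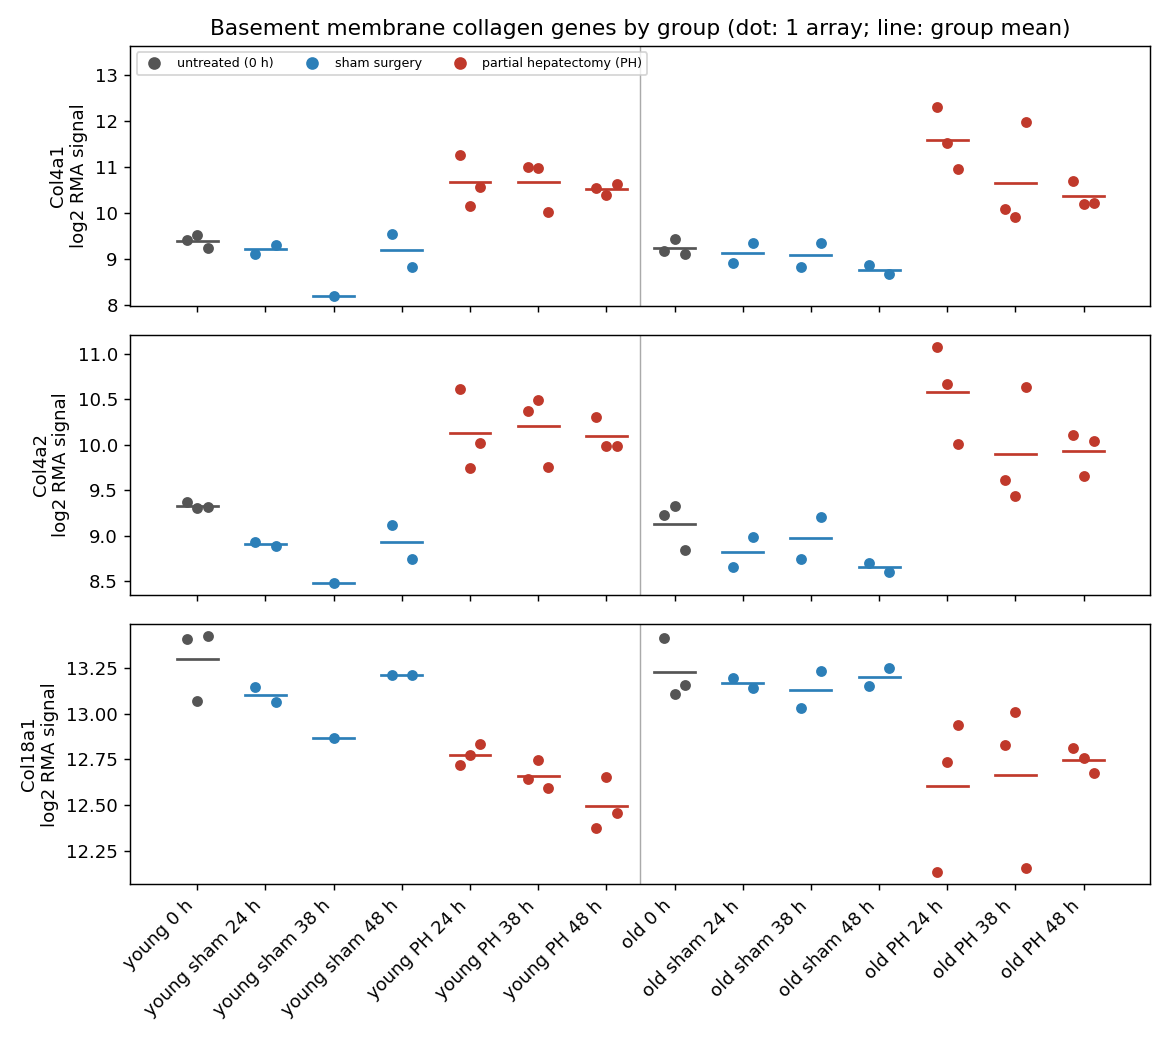
Log2 expression (y axis) of Col4a1, Col4a2 and Col18a1 in each of the 14 groups (x axis); each dot is 1 array and each line a group mean. All 18 PH arrays lie above the 17 others for Col4a1 and Col4a2, and 16 of 18 lie below all others for Col18a1.

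Against sham surgery of the same time and age, Col4a1 rose by 2.48 ± 0.56 at 38 h (adjusted p = 0.00781) and 1.34 ± 0.44 at 48 h (adjusted p = 0.0364) in young mice. In old mice the rise of Col4a1 was 2.47 ± 0.44 at 24 h (adjusted p = 0.00176), 1.57 ± 0.44 at 38 h (adjusted p = 0.0411) and 1.60 ± 0.44 at 48 h (adjusted p = 0.0172). At 24 h in young mice the difference, 1.46 ± 0.44, had an adjusted p of 0.126. For Col4a2 the rise was 1.73 ± 0.39 and 1.16 ± 0.31 in young mice at 38 and 48 h, and 1.77 ± 0.31 and 1.28 ± 0.31 in old mice at 24 and 48 h. The young difference at 38 h rests on a single sham array, which has the lowest Col4a1 level of all 35 arrays, 8.18, and against 0 h the rise at that time was 1.28 ± 0.40.

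Several of these calls rest on few arrays. In young mice at 48 h the Col4a1 call against sham was lost on removal of any 1 of the 5 arrays, with values of 0.97 to 1.71, and that of Col4a2 without young sham 48 h replicate 2, its values being 0.98 to 1.34. In old mice at 48 h the Col4a1 call was lost without old sham 48 h replicate 1 or 2 or old PH 48 h replicate 1 (1.43 to 1.70), and that of Col4a2 without old sham 48 h replicate 2. The old Col4a1 call at 38 h was lost without either sham array of that time or old PH 38 h replicate 3, with values of 0.91 to 1.95 over the arrays left out.

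Measured against unoperated livers of the same age, Col4a1 rose in young mice by 1.28, 1.28 and 1.13 at 24, 38 and 48 h and in old mice by 2.36 and 1.43 at 24 and 38 h, each with an SE of 0.40. The old difference at 48 h, 1.13, had an adjusted p of 0.0515. Col4a2 rose in all 6 of these comparisons, by 0.76 to 0.88 in young mice and by 1.46, 0.76 and 0.80 in old mice, with an SE of 0.27. The 6 comparisons use the same 3 unoperated arrays at each age, so they do not support each other independently. The calls at 24 h in old mice held without any single array, whereas at 48 h in young mice both chains lost the call against 0 h on removal of any 1 of the 6 arrays, with values of 1.05 to 1.20 for Col4a1 and 0.65 to 0.81 for Col4a2. In young mice at 24 h the Col4a1 call held in 2 of 6 such removals (0.97 to 1.54) and that of Col4a2 in 1 of 6 (0.55 to 0.99), and at 38 h in 3 and 4 of 6. In old mice the Col4a2 call held in 3 of 6 removals at 38 h (0.39 to 0.99) and in 1 of 6 at 48 h (0.66 to 0.94), and at 48 h it was lost with arrays centred on their medians (0.78).

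In old livers at 38 h, without old PH 38 h replicate 3, the difference in Col4a1 was 0.77 against 0 h (adjusted p = 0.0769) and 0.91 against sham (adjusted p = 0.190), and neither passed. Old PH 24 h replicate 1 and old PH 38 h replicate 3 are also the 2 arrays that correlate least with their group over all genes, with a median r of 0.965 and 0.946. They carry the 2 highest Col4a1 levels of the series. Without both, Col4a1 in old mice at 24 h was still 2.01 ± 0.29 above 0 h (adjusted p = 3.06e-05). At 38 h it was then 0.77 ± 0.29 above 0 h (adjusted p = 0.0402), and Col4a2 was 0.39 above it and did not pass.

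Of the other 4 type IV chains none was called after PH. Col4a3, Col4a4, Col4a5 and Col4a6, build the network of kidney and lung basement membranes. Across all 35 arrays Col4a3, Col4a4 and Col4a5 stayed below the array median, and Col4a6 reached it on 10. Consequently 2 of 6 type IV chains rose in each PH comparison with 0 h except at 48 h in old mice, where 1 did. Of all genes, 7.82% to 21.9% rose in these comparisons. The median change over the 6 chains was between -0.01 and 0.17. A second Col4a1 probe set gave smaller changes in the same direction, 1.03 and 0.58 in young mice at 38 and 48 h and 1.35 and 0.89 in old mice at 24 and 48 h against 0 h.

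Col18a1 moved the other way. It was 13.41, 13.07 and 13.42 in young and 13.41, 13.11 and 13.16 in old livers at 0 h. Sham livers had 12.87 to 13.25. After PH the young values were 12.72, 12.78 and 12.83 at 24 h, 12.64, 12.75 and 12.59 at 38 h, and 12.38, 12.65 and 12.46 at 48 h. Old values were 12.13, 12.73 and 12.94 at 24 h, 12.83, 13.01 and 12.16 at 38 h, and 12.81, 12.76 and 12.68 at 48 h. Of the 18 PH arrays, 16 were below every other array, and the share of genes with that many below was not counted. The stricter pattern, all 18 below, is met by 76 genes (0.418%) and not by Col18a1.

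Against 0 h Col18a1 fell by 0.52, 0.64 and 0.80 in young mice at 24, 38 and 48 h and by 0.62 and 0.56 in old mice at 24 and 38 h, with an SE of 0.17. The old difference at 48 h, -0.48, had an adjusted p of 0.056. Against sham only the young comparison at 48 h passed, with a fall of 0.72 ± 0.19 (adjusted p = 0.00992). The 2 lowest old arrays are the 2 named above as the least like their groups; without old PH 38 h replicate 3 the old value at 38 h was -0.31, and without old PH 24 h replicate 1 the old value at 24 h was -0.39, neither of which passed. With both arrays left out together the same values passed, the fit then having a smaller SE of 0.11. The old calls were also lost without old 0 h replicate 1. The young falls at 38 and 48 h against 0 h passed without any single array, while that at 24 h passed in 1 of 6 removals (-0.64 to -0.46). The call against sham was lost without either of the 2 sham arrays of 48 h (-0.80 to -0.66). A second Col18a1 probe set also lay lower in all 6 comparisons with 0 h and passed in 3 of them.

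Col15a1, the other multiplexin, was 8.43, 8.21 and 7.94 in young livers at 0 h, 8.51 to 8.88 after sham surgery and 8.84, 8.77 and 8.61 at 24 h after PH. The young PH rise at 24 h was 0.55 ± 0.14 (adjusted p = 0.00644), a call lost without young 0 h replicate 3, where it was 0.42. The young sham livers were higher than 0 h by 0.57 ± 0.12 (adjusted p = 0.00109). The PH arrays at 24 h overlapped those of sham surgery, and the difference between them was not called. In old livers Col15a1 at 0 h was already 8.43, 8.46 and 8.51, and neither surgery gave a call.

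Among the fibrillar collagens Col1a1, the alpha 1 chain of type I collagen, was 7.09, 7.47 and 7.40 in young and 7.44, 7.96 and 7.38 in old livers at 0 h. Young sham livers had 7.57 and 7.98 at 24 h, 7.73 at 38 h and 9.77 and 7.63 at 48 h. Old sham livers had 7.31 and 9.25 at 24 h, 7.52 and 7.50 at 38 h and 7.28 and 8.04 at 48 h. So 2 sham arrays, 1 of each age, reached levels otherwise found after PH.

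After PH, Col1a1 in young livers was 10.18, 8.20 and 8.21 at 24 h, 9.11, 9.37 and 8.76 at 38 h, and 9.58, 8.64 and 10.24 at 48 h. Old PH livers had 7.41, 8.35 and 9.55 at 24 h, 8.22, 8.76 and 7.63 at 38 h, and 10.01, 8.99 and 10.66 at 48 h. All 9 young PH arrays exceeded the young 0 h arrays. Among old livers the separation from 0 h was complete only at 48 h.

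Col3a1, the single chain of type III collagen, had 9.54, 9.19 and 9.96 in young and 9.48, 10.37 and 9.66 in old livers at 0 h. Its sham values were 8.99 and 9.99, 9.73, and 11.45 and 9.75 in young mice at 24, 38 and 48 h. In old sham mice they were 9.33 and 11.63, 9.33 and 9.71, and 8.95 and 9.93. The same 2 sham arrays as for Col1a1 stood out.

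Young PH livers gave Col3a1 levels of 12.18, 10.28 and 10.45 at 24 h, 11.57, 11.66 and 11.21 at 38 h, and 11.70, 10.89 and 12.09 at 48 h. In old PH livers the levels were 9.64, 10.86 and 12.20 at 24 h, 10.84, 10.79 and 9.44 at 38 h, and 12.25, 11.33 and 12.07 at 48 h. All 3 old arrays at 38 h were below all 3 young arrays of that time, and at 24 and 48 h the ages overlapped.

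The type V chain Col5a2 was 7.86, 7.74 and 8.01 in young and 8.08, 8.32 and 8.07 in old livers at 0 h, and 7.81 to 8.83 after sham surgery. Young PH livers had 9.32, 8.26 and 8.35 at 24 h, 9.21, 9.12 and 8.76 at 38 h, and 9.40, 8.53 and 9.33 at 48 h. Old PH livers had 8.07, 8.63 and 9.15 at 24 h, 8.58, 8.54 and 8.0 at 38 h, and 9.64, 8.77 and 9.46 at 48 h. Of the 18 PH arrays, 8 were above every other array, and the old 38 h arrays were again all below the young ones.

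For the second type V chain, Col5a1, the 0 h levels were 7.63, 7.45 and 7.56 in young and 7.56, 7.82 and 7.61 in old livers, and sham livers had 7.33 to 8.53. Young PH livers had 8.65, 8.07 and 8.10 at 24 h, 8.92, 9.02 and 8.56 at 38 h, and 8.79, 8.22 and 8.86 at 48 h. In old PH livers Col5a1 was 7.97, 8.37 and 8.57 at 24 h, 8.31, 8.50 and 7.93 at 38 h, and 8.87, 8.18 and 8.67 at 48 h. Every one of the 18 PH arrays was above the 6 unoperated ones, a pattern not counted over all genes.

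Col1a2 had the smallest span of the type I and III chains. Unoperated livers had 9.56, 9.50 and 9.75 in young and 9.46, 9.88 and 9.69 in old mice, and sham livers 9.35 to 10.83. Young PH livers reached 11.29, 9.99 and 9.81 at 24 h, 10.37, 10.40 and 10.09 at 38 h, and 10.40, 10.03 and 10.92 at 48 h. In old PH livers the levels were 9.54, 9.82 and 10.77 at 24 h, 9.83, 10.16 and 9.60 at 38 h, and 10.76, 10.42 and 11.15 at 48 h. The young arrays at each PH time, and the old arrays at 48 h, lay above the 0 h arrays of their age.

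**Figure D2:**
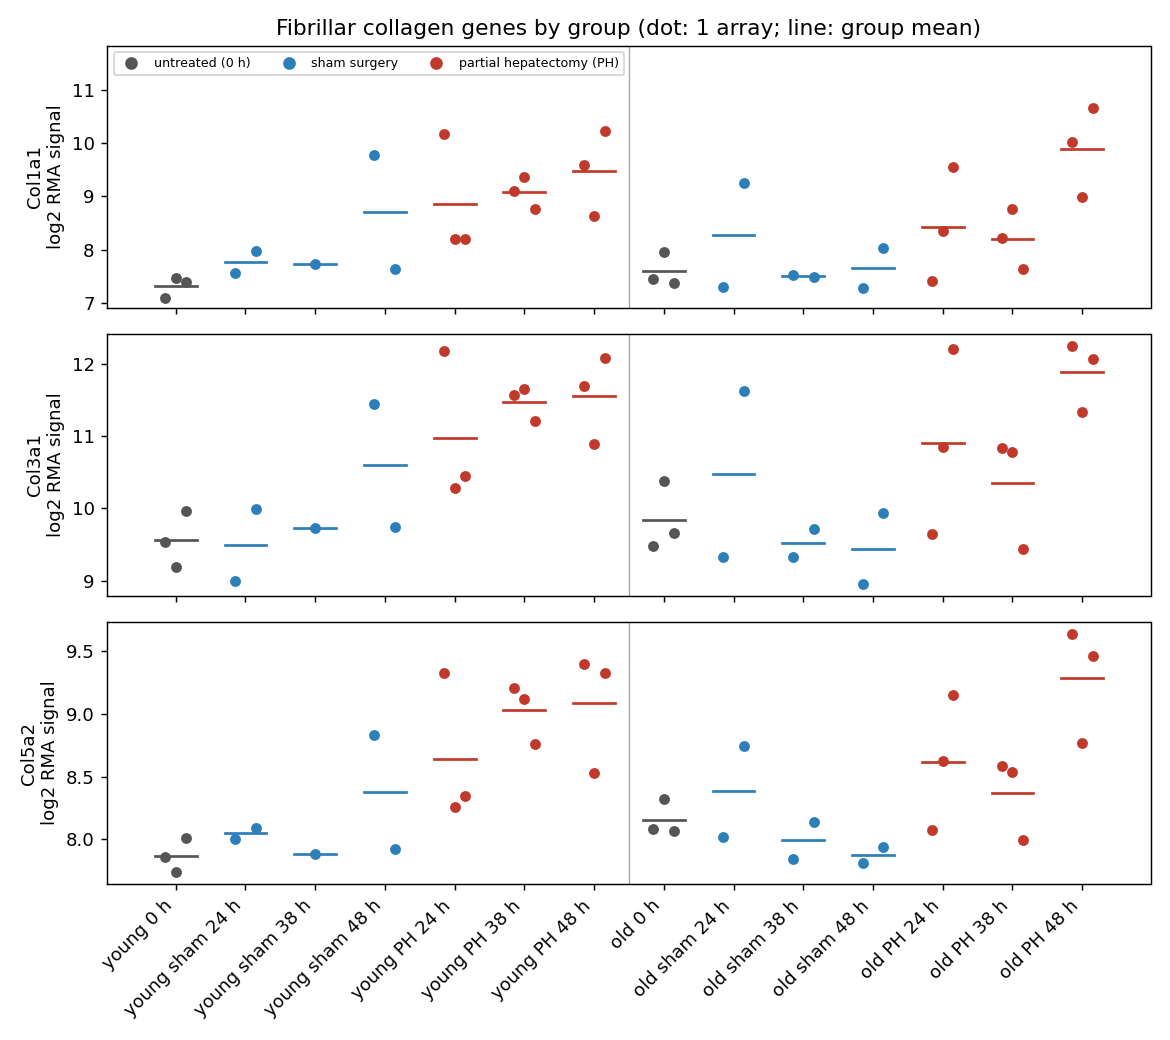
Log2 expression (y axis) of Col1a1, Col3a1 and Col5a2 in each of the 14 groups (x axis); each dot is 1 array and each line a group mean. Col3a1 of old mice runs from 9.64 to 12.20 at 24 h after PH and from 11.33 to 12.25 at 48 h.

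Against sham surgery of the same time, 4 of 11 fibrillar chains rose in old mice at 48 h (8.46% of all genes), and none rose in the other 5 comparisons with sham. Col1a1 rose by 2.23 ± 0.68 (adjusted p = 0.0285), Col3a1 by 2.44 ± 0.69 (adjusted p = 0.0194), Col5a1 by 0.86 ± 0.27 (adjusted p = 0.0317) and Col5a2 by 1.41 ± 0.34 (adjusted p = 0.00666). The last 2 encode type V collagen, which sets the diameter of type I fibrils. With the mean of its 3 probe sets Col5a1 was 0.36 above sham and did not pass. The median over the 11 fibrillar genes was -0.08, against -0.07 for all genes. The Col1a1, Col3a1 and Col5a1 calls passed with only 1 of the 5 arrays, old PH 48 h replicate 2, left out, and their values ran from 1.84 to 2.68, from 1.95 to 2.93 and from 0.71 to 1.06. That of Col5a2 was lost without either sham array (1.24 to 1.67). Removal of old sham 48 h replicate 2 left no collagen called in that comparison.

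In young mice the differences of Col1a1 and Col3a1 from sham at 24 h were 1.09 and 1.48, and neither passed. Young sham 48 h replicate 1, at 9.77 for Col1a1 and 11.45 for Col3a1, lies among the PH arrays of its time. The 1 fibrillar call against sham in young mice was a fall, that of Col11a1 at 38 h by 0.56 ± 0.17 (adjusted p = 0.0485), again against the single sham array. Col11a1 lies below the array median on all arrays and was named after its values were seen. With the sham groups of an age pooled, Col5a1 and Col5a2 rose in young mice at 38 h, by 0.83 and 0.88, and at 48 h, by 0.62 and 0.94, where Col3a1 rose too, by 1.58. With only the groups compared in the fit, Col3a1 rose in young mice at 38 h, by 1.75. The age difference of the PH response from 0 h at 48 h, 0.13 for Col1a1 and 0.05 for Col3a1, was not called.

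Compared with 0 h, 5 of 11 fibrillar genes rose in young mice at 38 h (15.2% of all genes) and 4 at 48 h (13.4%). At 24 h 2 rose (7.82%). Col1a1 rose by 1.76 at 38 h and 2.16 at 48 h (SE 0.60), Col3a1 by 1.92 and 2.00 (SE 0.62), and Col5a2 by 1.16 and 1.22 (SE 0.30). Col5a1 rose by 0.72, 1.28 and 1.08 at 24, 38 and 48 h (SE 0.24), and the rise at 38 h was 0.59 with the mean of its 3 probe sets. The rises of Col5a1 and Col5a2 at 38 and 48 h passed without any single array. Those of Col1a1 and Col3a1 at 38 h were lost on removal of 4 of the 6 arrays in turn, and that of Col1a1 at 48 h on removal of young PH 48 h replicate 3, where it was 1.79. The Col5a1 call at 24 h passed in 1 of 6 removals (0.54 to 0.83), and that of Col3a1 at 48 h was lost without young 0 h replicate 2 or young PH 48 h replicate 1 or 3 (1.73 to 2.33).

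In old mice no fibrillar gene passed at 24 h against 0 h in limma (11.7% of all genes rose and 12.6% fell). At an unadjusted p below 0.05 in limma there were 2 of 11, Col5a1 and Col27a1 (36.4% of all genes). At 38 h only Col2a1 rose, by 0.32 (21.9% of all genes rose). At 48 h 5 of 11 rose (8.28% of all genes). Col1a1 rose by 2.30 ± 0.60, Col3a1 by 2.05 ± 0.62, Col1a2 by 1.10 ± 0.36, Col5a1 by 0.91 ± 0.24 and Col5a2 by 1.13 ± 0.30. Col1a2, the alpha 2 chain of type I collagen, passed in no young comparison, where its differences from 0 h were 0.69 to 0.85. Its call in old mice passed in 1 of 6 removals, and that of Col3a1 in 2 of 6. The old Col1a1 call was lost without old PH 48 h replicate 3 (1.91), and those of Col5a1 and Col5a2 without old PH 48 h replicate 1 (0.76 and 0.96).

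The remaining fibrillar chains were low on the arrays or were not called after PH. Col2a1, Col11a1, Col11a2 and Col24a1, collagens of cartilage and other tissues, were below the array median on all 35 arrays. Col2a1 rose against 0 h in young mice at 24 and 38 h by 0.44 and 0.35, and the sham livers were above 0 h by 0.47 in young and 0.48 in old mice. Col5a3 was never called, and its lowest values, 7.94 and 7.96, are those of old PH 24 h replicate 1 and old PH 38 h replicate 3, which are also the lowest in their groups for Col1a1 and Col3a1. Col27a1, at or above the array median on all 35 arrays, was not called against sham or 0 h after PH. It was 10.59 and 9.89 on old PH 24 h replicates 1 and 2 and 10.64 on old PH 38 h replicate 3. These 3 PH arrays were above every array without PH, and 2 other PH arrays were below every one.

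Fat-associated transcripts set 2 arrays apart, and both are high in fibrillar collagens. The adipokine gene Adipoq was 9.84 on young PH 24 h replicate 1 and 8.48 on old sham 24 h replicate 2, and at most 6.34 on the others. The mean of the 4 adipose markers on the arrays (Adipoq, Lep, Fabp4 and Retn) was 9.58 and 8.48 there, against 6.82 to 8.11 elsewhere. Acta2, the smooth muscle actin of myofibroblasts, was 11.02 and 10.81 on these arrays. Young sham 48 h replicate 1 and old PH 24 h replicate 3 are also high in fibrillar collagens, with Adipoq at 4.93 and 5.20.

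Without these 2 arrays, an alternative added after the marker levels were seen, the young comparison at 24 h with 0 h had 5 collagens called in place of 10, 4 of them among those 10 and Col14a1 in addition. Col4a1 was then 0.97 ± 0.44 (adjusted p = 0.149), Col4a2 0.55, Col5a1 0.54 and Col18a1 -0.50, none of which passed. The rises of fibrillar chains in old mice at 48 h do not involve these arrays, and the 4 fibrillar calls against sham were kept. The part of other tissue in the fibrillar levels was not tested.

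Markers of matrix-producing and other cells were measured beside the collagens. Their counts stand beside 7.82% to 21.9% of all genes higher and 8.62% to 16.6% lower in the 6 comparisons of PH with 0 h. Of 6 myofibroblast markers, 4 rose against 0 h in young mice at 24 and at 38 h, 2 at 48 h, and in old mice 1, 1 and 0. Tagln, an actin-binding protein of contractile cells, rose by 1.78 ± 0.36 and 1.66 ± 0.36 in young mice at 24 and 38 h, and Acta2 by 1.28 ± 0.41 and 1.16 ± 0.41. In old mice at 48 h, where 5 of 11 fibrillar chains rose, Acta2 was 0.65 ± 0.41 above 0 h (adjusted p = 0.317). The mean log2 level of this list ran from 7.85 to 8.25 on the 0 h arrays, from 8.03 to 9.35 on the sham arrays and from 8.35 to 10.16 on the PH arrays. Of 10 stellate cell markers 2 to 4 fell against 0 h in every PH group and 1 rose, in young mice at 24 h. Among 10 endothelial markers 1 to 5 fell and none rose. The group means of the endothelial list were 9.37 and 9.36 in young and old livers at 0 h. They were 8.86 to 9.08 after sham surgery and 8.81 to 9.07 after PH. For the stellate list they were 9.06 and 9.20 at 0 h, 8.64 to 9.08 after sham surgery and 8.62 to 8.93 after PH. Levels below 0 h were thus not particular to PH. Of 7 portal fibroblast markers 1 to 3 rose against 0 h, of 5 cholangiocyte markers 0 to 4, of 5 mesothelial markers 0 to 3, and of 4 adipose markers 0 to 2. Among 7 macrophage and Kupffer cell markers 2 rose in young mice at 38 h and 5, 4 and 2 fell in old mice at 24, 38 and 48 h. The mean level of this macrophage list was 9.44, 11.64 and 9.86 on the old 0 h arrays, and 8.84 to 9.80 on the old PH arrays. How far these falls rest on old 0 h replicate 2 was not tested. Of 6 hepatocyte markers 0 to 2 fell. The part of these cell types in the collagen changes was not tested.

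The order of arrays within a group was compared in the 8 groups of 3 arrays. Col3a1 and Col5a1 shared the lowest array in 8 groups and the highest in 6, and Col3a1 and Col5a2 in 7 and 6. Col1a1 and Col1a2 shared the lowest in 5 and the highest in 7, and Col1a1 and Col5a2 in 7 and 3. For Col4a1 and Col4a2 the counts were 6 and 5. Across the classes, Col3a1 and Col4a1 shared the lowest array in 4 groups and the highest in 4, and Col1a1 and Col4a1 in 5 and 4. Acta2 shared the lowest and the highest array with Col3a1 in 6 groups each, and with Col4a1 in 3 each. The counts of these pairs overlap within and across the classes, and no test was made of them.

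The contrast between the classes was also put as the mean log2 level of all measured chains of a class, minus its mean at 0 h of the same age. Over the 11 fibrillar genes the PH arrays averaged 0.48 ± 0.32, 0.59 ± 0.16 and 0.58 ± 0.24 (SD, n = 3) in young mice at 24, 38 and 48 h. In old mice the fibrillar mean was 0.30 ± 0.39, 0.22 ± 0.26 and 0.65 ± 0.23. Over the 6 type IV genes it was 0.37 ± 0.17, 0.30 ± 0.23 and 0.29 ± 0.04 in young and 0.62 ± 0.19, 0.40 ± 0.28 and 0.31 ± 0.09 in old mice.

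The fibrillar mean minus the type IV mean was 0.12 to 0.30 in the 3 young PH groups. In old mice it was -0.32 ± 0.59 at 24 h, -0.18 ± 0.53 at 38 h and 0.34 ± 0.19 at 48 h. At 24 h 2 of the 3 old arrays were negative, replicate 1 at -0.91 and replicate 2 at -0.31, and at 38 h 1 was, replicate 3 at -0.79. In sham livers the same difference ran from -0.07 to 0.73, where the type IV mean reached at most 0.09 and the fibrillar mean reached 0.81 on young sham 48 h replicate 1. Both means weigh all chains of a class alike. They include chains below the array median on every array, such as Col4a3, Col4a4, Col4a5, Col2a1 and Col24a1. The size and sign of the difference depend on these chains, so that it does not rank the responses of the classes.

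**Figure D3:**
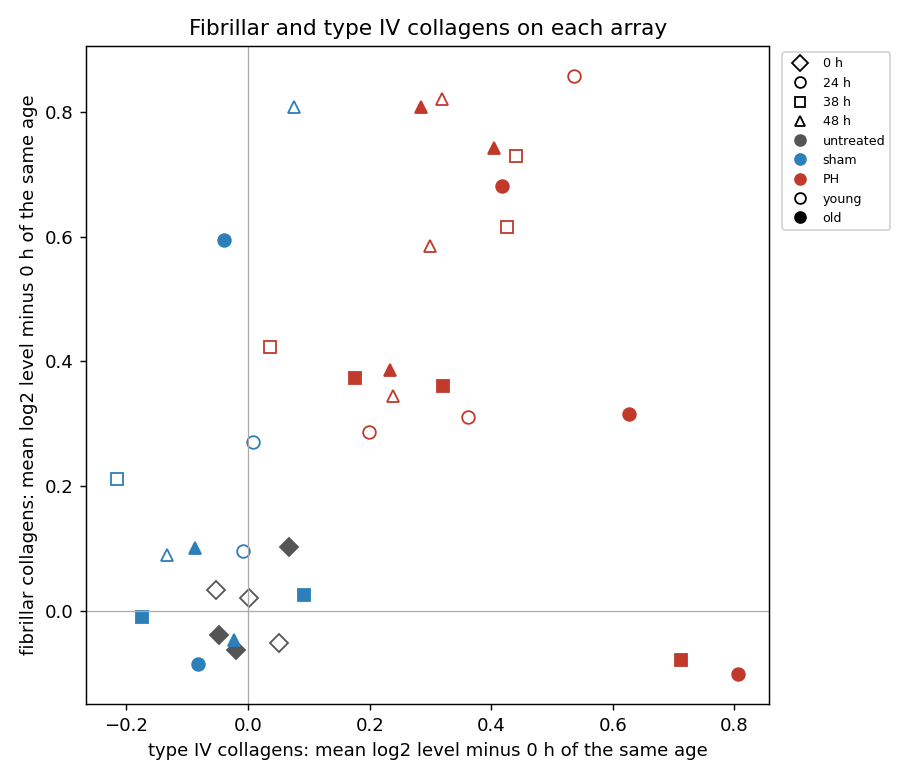
Mean log2 level of the 11 fibrillar collagens (y axis) against that of the 6 type IV collagens (x axis), each minus the 0 h mean of the same age; each point is 1 array, with color for surgery, shape for time and filled symbols for old mice. Sham arrays spread along the fibrillar axis up to 0.81 with type IV means of at most 0.09, and 2 old PH arrays lie far out along the type IV axis with fibrillar means of -0.10 and -0.08.

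Among the other classes, Col14a1, a FACIT collagen found on type I fibrils, was lower after either surgery. It was 9.43, 9.05 and 9.30 in young and 9.66, 9.62 and 9.42 in old livers at 0 h. Old PH livers had 8.38, 8.26 and 8.94 at 24 h, 8.93, 8.92 and 8.30 at 38 h, and 9.04, 8.78 and 9.14 at 48 h. The 9 old PH arrays were all below the 3 old 0 h arrays, a pattern not counted over all genes. Against 0 h Col14a1 fell by 1.04, 0.85 and 0.58 at the 3 times (SE 0.19). The last passed in 2 of 6 removals of an array (-0.66 to -0.48). Sham surgery alone gave a fall as well, by 0.66 ± 0.17 in old sham livers (adjusted p = 0.005) and by 0.58 ± 0.18 in young sham livers (adjusted p = 0.0127). In young PH livers, at 8.60 to 9.22, the differences did not pass, but a second Col14a1 probe set gave -0.87, -1.14 and -1.01 at the 3 young times and passed at each.

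Col12a1, a relative of Col14a1, rose against 0 h in young mice by 0.60 ± 0.11 at 24 h and 0.51 ± 0.11 at 38 h, and in old mice by 0.38 and 0.30. Its rises after sham surgery, 0.30 in young and 0.25 in old mice, were lost with the mean of its probe sets (0.10 and 0.16). The old PH calls were lost without old PH 24 h replicate 2 (0.27) and, at 38 h, without old PH 38 h replicate 3 (0.14) or old 0 h replicate 1 or 2. The young PH values of 8.43, 8.47 and 8.33 at 24 h lay above the 0 h values of 7.79, 7.73 and 7.91. They were also above the young sham values of that time, 8.08 and 8.13, without passing the test against sham. Col9a1, a cartilage FACIT, was 7.30, 7.36 and 7.34 in young livers at 0 h and 7.44 to 7.78 on the 9 young PH arrays. It rose in young mice by 0.29 to 0.37 over the 3 PH times and by 0.40 ± 0.08 after sham surgery. Col9a1 lay below the array median on every array, and its call at 24 h passed in 2 of 6 removals of an array (0.23 to 0.38).

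Col23a1, a transmembrane collagen, was 6.41, 6.62 and 6.49 in young and 6.36, 6.32 and 6.68 in old livers at 0 h, 6.83 to 7.06 after sham surgery and 6.69 to 7.23 after PH. All 29 operated livers were above the 6 unoperated ones, the lowest at 6.69 and the highest unoperated at 6.68. This pattern was not counted over all genes. Col23a1 rose against 0 h in all 6 PH comparisons, by 0.28 to 0.63 (SE 0.10). With the mean of its probe sets 3 of these calls were lost, young at 48 h (0.11) and old at 24 and 48 h (0.16 and 0.19). Sham surgery gave rises of 0.44 in young and 0.49 in old mice, and Col23a1 lay below the array median on every array. Col13a1, another transmembrane collagen, was 8.74, 8.72 and 7.79 in old livers at 24 h after PH, against 7.49 and 7.49 after sham surgery and 7.90, 7.63 and 7.15 at 0 h. Elsewhere only old PH 38 h replicate 3, at 8.62, was above 8. The rise of Col13a1 in old mice at 24 h was 0.93 ± 0.27 against sham (adjusted p = 0.0307) and 0.86 ± 0.24 against 0 h. The call against sham was lost on removal of any of 4 of the 5 arrays, with values of 0.77 to 1.24, and that against 0 h without old PH 24 h replicate 1 or 2 or old 0 h replicate 3 (0.66 to 1.17).

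Type VI collagen forms beaded filaments around cells. Col6a3 was 9.99, 9.59 and 9.97 in old livers at 48 h after PH, and 8.87 and 9.08 after sham surgery, a rise of 0.88 ± 0.29 (adjusted p = 0.0395). Its old 0 h values of 8.93, 9.44 and 9.10 lay between, and that comparison did not pass. Col6a4, below the array median on every array, rose in young mice against 0 h by 0.39 and 0.37 at 38 and 48 h. Col6a1 and Col6a2 were not called in any PH comparison. Col6a3, Col6a4 and the next genes were named because the counts hold so few, after their values were seen: Col20a1 and Col25a1 fell against sham in old mice at 48 h by 0.41 and 0.37, and Col8a1 rose against 0 h in young mice at 24 and 38 h by 0.37 and 0.32. Col8a1 lay below the array median on every array. In old mice sham surgery, with its times averaged, itself raised Col20a1 and Col25a1 against 0 h, by 0.50 and 0.33. After PH both rose against 0 h at 38 h, by 0.38 and 0.35, and neither was called against 0 h at 48 h. Their falls against sham at 48 h are therefore not falls from the unoperated level.

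**Figure D4:**
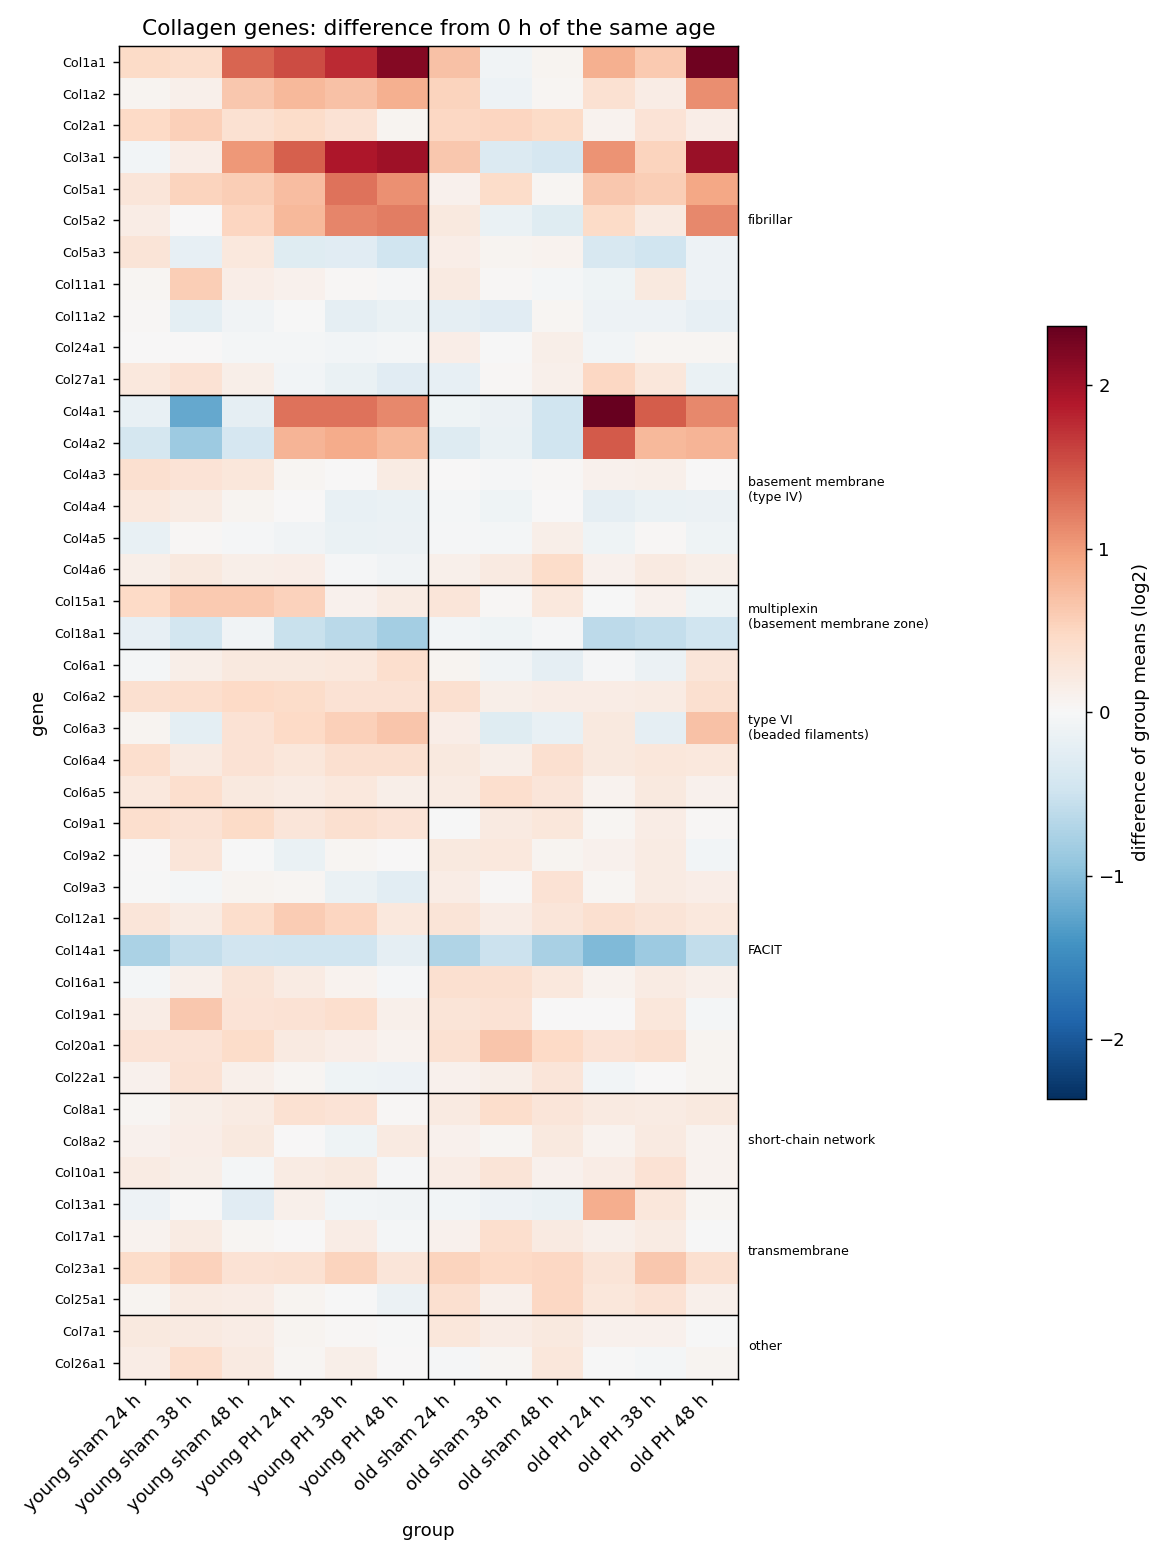
Difference of group means from 0 h of the same age (log2, color) for the 42 collagens (rows, ordered by class) in the 12 operated groups (columns). Col4a1 and Col4a2 are raised in the 6 PH columns and not in the 6 sham columns, while Col14a1 is lowered in all 12.

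**Figure D5:**
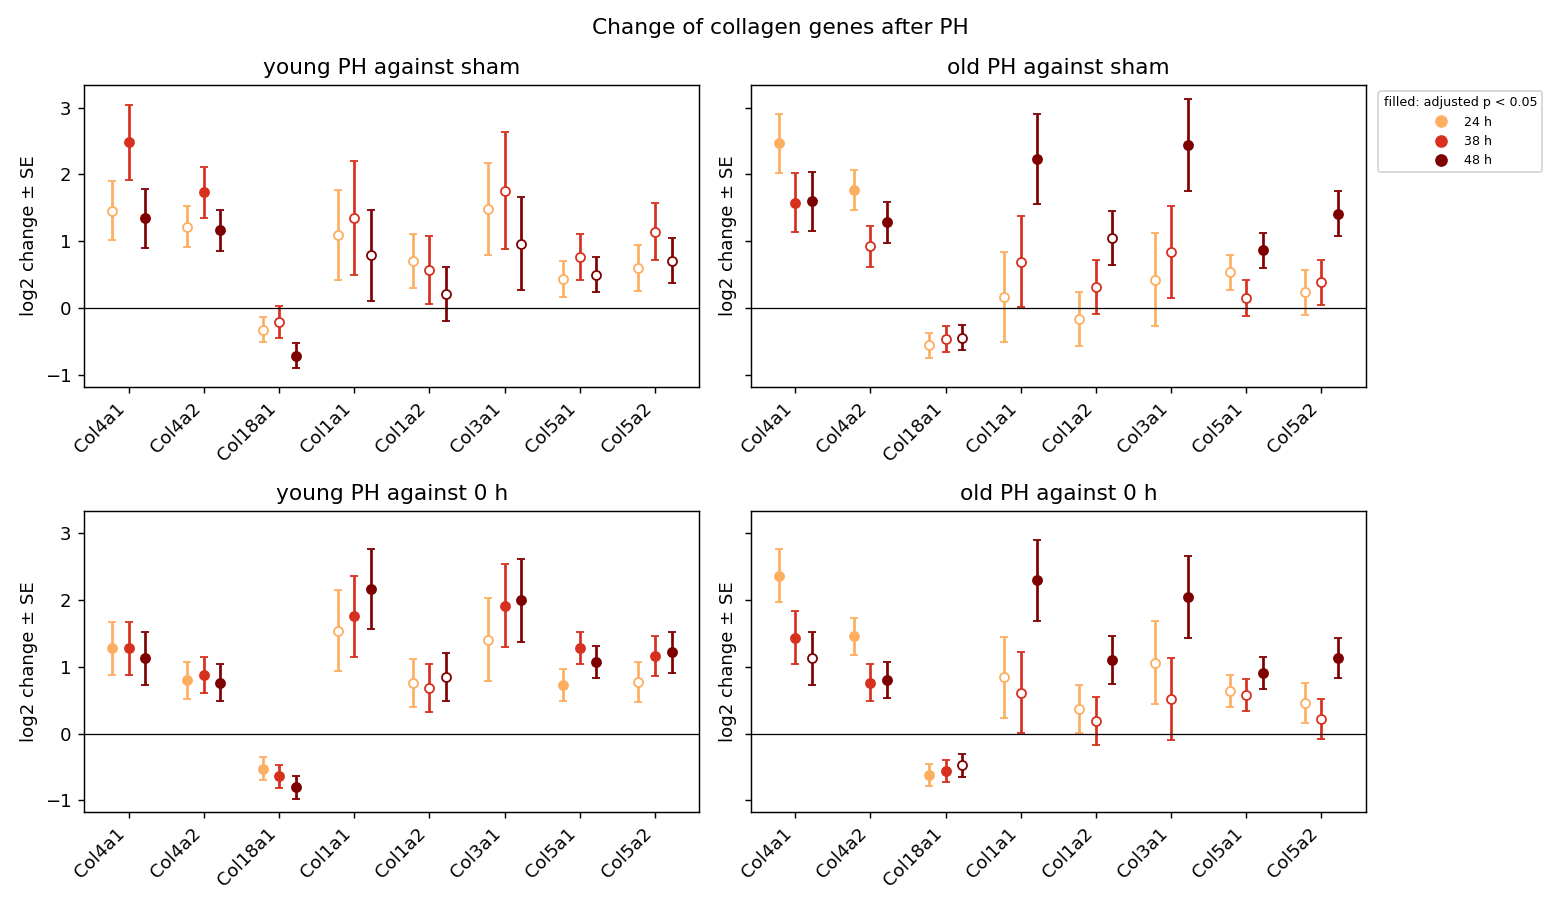
Log2 change ± SE (y axis) of 8 collagens (x axis) at 24, 38 and 48 h (color) after PH, in 4 panels for young and old mice against sham surgery and against 0 h; filled symbols mark an adjusted p under 0.05. Against sham, Col4a1 and Col4a2 are filled at 38 and 48 h in young and at 24 and 48 h in old mice. Col4a1 is filled at 38 h in old mice too. Of the fibrillar chains, Col1a1, Col3a1, Col5a1 and Col5a2, and not Col1a2, are filled against sham, in old mice at 48 h.

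Old and young livers were also compared directly. No collagen was called between the ages at 0 h (0.236% of all genes), after sham surgery (0.0495%), or after PH at 24 h (7.39%), 38 h (2.01%) or 48 h (0.0824%). At an unadjusted p below 0.05 limma gave 3, 1, 8, 4 and 1 collagens in these comparisons. Of all genes, 10.5%, 8.28%, 27%, 17.2% and 7.11% passed at that threshold. After PH at 24 h Col4a1 was 0.93 higher in old livers (95% confidence interval 0.11 to 1.75, adjusted p = 0.135), and the arrays overlapped. Without old PH 24 h replicate 3 this difference was 1.25 ± 0.43 (adjusted p = 0.0402) and 4 collagens passed, Col4a1, Col9a3, Col13a1 and Col27a1. The share of all genes that passed in that fit is not given here.

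At 38 h no fibrillar chain was called between the ages. Col3a1 differed by -1.12 (95% interval -2.40 to 0.15), Col5a1 by -0.59 (-1.08 to -0.09) and Col5a2 by -0.66 (-1.28 to -0.03), with adjusted p of 0.351, 0.208 and 0.269. For these 3 genes all old arrays lay below all young arrays of that time, as 6.52% of all genes do. At 48 h Col1a1 and Col3a1 differed by 0.40 and 0.32, with intervals from -0.84 to 1.65 and from -0.96 to 1.60.

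The age difference of the PH response, the change from 0 h in old minus that in young mice, was called for no collagen at 24 h (0.0605% of all genes), 38 h (0.143%) or 48 h (0%). At an unadjusted p below 0.05 in limma there were 3, 6 and 2 (13.7%, 16.4% and 7.5% of all genes). For Col4a1 it was 1.09 at 24 h (95% interval -0.07 to 2.24) and for Col3a1 -1.40 at 38 h (-3.21 to 0.41). So the stronger Col4a1 value in old mice at 24 h and the weaker Col3a1 value at 38 h are not shown to differ by age, nor to be alike.

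Change over time after PH was examined between 48 and 24 h, in comparisons added after the levels were seen. No collagen was called in young (5.9% of all genes) or old mice (3.4%). At an unadjusted p below 0.05 in limma there were 7 and 8 (20.3% and 18% of all genes). In old livers Col4a1 and Col1a1 had opposite signs. Col4a1 was -1.23 at 48 against 24 h (95% interval -2.05 to -0.41, adjusted p = 0.0897) and Col1a1 1.45 (0.21 to 2.70, adjusted p = 0.199). All 3 old Col4a1 arrays at 48 h were below all 3 at 24 h, as 9.06% of all genes were, and those of Col1a1 overlapped. Old PH 24 h replicate 3 is the highest in Col1a1 and the lowest in Col4a1 and Col4a2 of its group. Without it 6 collagens passed, including Col1a1, Col4a1, Col4a2 and Col13a1. The share of all genes that passed in that fit is not given here. In young livers the same differences were -0.15 (-0.97 to 0.67) for Col4a1 and 0.62 (-0.62 to 1.87) for Col1a1. The age difference of this change was -1.09 for Col4a1 (-2.25 to 0.07) and 0.83 for Col1a1 (-0.94 to 2.59). Here 0 collagens were called (0% of all genes), and 3 had an unadjusted p below 0.05 in limma (15.7%).

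Genes that act with collagens were counted by list. In the 6 comparisons of PH with 0 h, 7.82% to 21.9% of all genes rose and 8.62% to 16.6% fell, and the counts below stand beside these shares. Of 15 genes of procollagen modification and folding, 2 to 5 rose against 0 h in the PH groups and 0 or 1 fell. Serpinh1, the collagen chaperone HSP47 of the endoplasmic reticulum, rose in all 6 of these comparisons, by 1.25, 1.41 and 1.14 in young and 1.21, 0.80 and 1.13 in old mice (SE 0.26). Against sham it rose in young mice by 1.35 at 38 h, against the single sham array, and by 0.84 at 48 h, and in old mice by 1.04 at 48 h. P4ha1, a subunit of prolyl 4-hydroxylase, fell against 0 h in old mice by 0.78, 1.15 and 0.85 and was not called in young mice.

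Of 11 genes for propeptide cleavage and cross-linking, 2 or 3 rose against 0 h in each PH group. Tgm2, the tissue transglutaminase that cross-links matrix proteins, rose by 1.04 to 1.71 in young and 0.89 to 1.34 in old mice (SE 0.25), and against sham by 1.70 in young mice at 48 h and by 1.02 to 1.16 in old mice at the 3 times. Lox, the lysyl oxidase of fibril cross-links, rose in old mice by 0.49, 0.44 and 0.45. In young mice its differences of 0.26, 0.16 and 0.08 did not pass, and the difference by age was not called. Pcolce, which speeds removal of the C-propeptide, rose in young mice by 1.06 at 38 h and 1.49 at 48 h.

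Among 12 genes of collagen degradation, 2 or 3 rose against 0 h in each PH group, beside the same shares of all genes. Mmp14, a membrane-bound collagenase, rose by 0.97, 1.03 and 1.39 in young and 1.27, 0.72 and 0.81 in old mice (SE 0.19). Its inhibitor Timp1 rose as well, by 1.24, 1.81 and 1.35 in young and 1.76, 1.29 and 1.30 in old mice (SE 0.32). Against sham both passed only in old mice at 24 h, with 1.03 and 1.18.

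Of 15 basement membrane partners of type IV collagen, 1 to 4 rose and 1 to 4 fell against 0 h in the PH groups. Sparc, a type IV collagen-binding glycoprotein, rose in all 6, by 0.98 to 1.54 (SE 0.23). Nid1, which bridges laminin and type IV collagen, rose in old mice by 2.78 ± 0.60 at 24 h and 1.87 ± 0.60 at 48 h, and against sham by 3.26 ± 0.67 and 2.68 ± 0.67. Lama4, a laminin chain of vessel walls, fell in all 6 comparisons with 0 h, by 0.52 to 0.77 (SE 0.11).

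Of 11 partners of the fibrillar network, 1 to 3 rose against 0 h and none fell. Lum, a proteoglycan that spaces collagen fibrils, rose against sham at 48 h in young (1.16 ± 0.36) and old mice (1.59 ± 0.36). Thbs1, the matricellular protein thrombospondin, rose in old mice at 24 h by 2.33 ± 0.57 against 0 h. Of 8 collagen receptors 0 to 3 rose and 0 to 2 fell against 0 h. Of 12 genes of TGF-beta signalling, the pathway best known for inducing fibrillar collagens, 0 to 2 passed against sham, all upward, and against 0 h 0 or 1 rose and 1 to 4 fell. Its target Ccn2 rose against sham by 2.65 ± 0.64 in young mice at 38 h, where there is a single sham array, and by 2.12 ± 0.51 in old mice at 24 h. Against 0 h it rose at no time and fell by 1.21 ± 0.45 in old mice at 38 h, while in the sham livers of either age it fell by 1.97.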

How the data were processed

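RNA from the livers was measured on Affymetrix moe430_2 arrays, hybridised with biotin-labelled RNA made from 5 µg of total RNA purified on Qiagen RNeasy columns, per the labels' protocols. The deposited values are log2 intensities made by the authors with RMA, per the submitters' processing notes. The RMA version is not given in the sources used here, nor is the set of arrays normalised together. No count exists for an array, and the number of arrays limits the precision.

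Of 45101 probe sets, 64 are controls, 34958 have 1 listed gene symbol, 932 several and 9211 none. A gene was read from its brightest probe set by the mean of all arrays, which left 18193 genes. RMA and the choice of probe set can compress a change, and other probe sets are given for some genes.

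Means of 14 groups were fitted without covariates to the 35 arrays (limma 3.58.1, R 4.3.3), which left 21 residual degrees of freedom beside 3.29 prior ones. Variances were moderated by empirical Bayes and p-values were adjusted by the method of Benjamini and Hochberg over 18193 genes in each of 22 comparisons. A further 3, of 48 against 24 h after PH, were added after the levels were seen. Livers after PH were set against sham livers of equal time and age and against 0 h of equal age; sham surgery was compared with 0 h as the mean of its 3 times. The age difference of the PH response is measured from 0 h. The fit was tested on simulated data.

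The members, gene lists and comparisons were chosen with earlier results of these data known. Described by array were Col1a1, Col1a2, Col3a1, Col5a2, Col4a1, Col4a2 and the collagens with the smallest adjusted p, to 14 in all. Of each list of partner genes or cell markers, up to 3 of the larger changes that passed were to be named; some further genes were named after their values were seen. Listed collagens Col6a6, Col21a1 and Col28a1 were not analysed here.

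Alternatives were the mean of a gene's probe sets, arrays centred on their medians, quantile normalization repeated and a filter on dim genes. The filter kept genes at or above the array median on at least 3 arrays. Others were only the groups compared in the fit, shams pooled over time, the replicate number as a block and omission of 2 outlying arrays. Each array was also omitted in turn. Omission of the 2 arrays highest in Adipoq was added after the marker levels were seen. Promoter windows were read from a RefSeq table of build GRCm38.p6, which held 33 of 42 collagens. Figures were drawn with matplotlib 3.10.9 in Python 3.11.15.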

Additional observations from a re-analysis of the deposited data

How the results depend on the processing

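Counts are of the 42 collagens called by limma. The number of all genes called under each setting is not given beside them. A changed count is therefore not read as particular to collagens. For PH against sham, young mice at 24 h (0 called) had 1 with the mean of probe sets, 1 with the filter on dim genes, 2 without the 2 outlying arrays, 3 with only the groups compared and 2 with pooled shams. At 38 h (3 called) they had 5, 1 and 8 under the last 3 of these, and at 48 h (3 called) 7, 7 and 14, with 5 for the mean of probe sets. Old mice at 24 h (3 called) had 5 with centred arrays, 0 with only the groups compared and 7 with pooled shams. At 38 h (1 called) they had 0 without the outlying arrays, 0 with only the groups compared and 3 with pooled shams.

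Against 0 h, the filter on dim genes, which keeps 23 collagens, gave 6 in place of 10 in young mice at 24 h, 8 in place of 13 at 38 h, 4 in place of 11 for young sham and 6 in place of 10 for old sham. With only the groups compared, old mice had 3 in place of 7 at 24 h and 1 in place of 10 at 38 h, and young sham had 18. Young sham had 17 without the outlying arrays. Young mice at 24 h had 5 without the 2 arrays highest in Adipoq. Old against young at 24 h after PH (0 called) had 1 with the mean of probe sets and 1 without the outlying arrays. For 48 against 24 h, young mice (0 called) had 1 with the mean of probe sets, 1 with the filter, 3 without the outlying arrays and 1 with only the groups compared; old mice (0 called) had 1 with the filter.

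With each array left out in turn, the counts against sham ran 0 to 0, 2 to 2 and 0 to 4 in young mice at 24, 38 and 48 h and 2 to 6, 0 to 3 and 0 to 7 in old mice. Against 0 h they ran 2 to 8, 7 to 13 and 3 to 10 in young and 5 to 7, 5 to 11 and 2 to 7 in old mice, 6 to 12 for young sham and 6 to 10 for old sham. The lowest counts came without young sham 48 h replicate 2, old sham 48 h replicate 2, young 0 h replicate 3, young PH 38 h replicate 2, young PH 48 h replicate 3, old 0 h replicate 1 and old PH 48 h replicate 1. Old against young at 24 h ran 0 to 4 and 48 against 24 h in old mice 0 to 6, the highest counts coming without old PH 24 h replicate 3. For 48 against 24 h in young mice the range was 0 to 1, the highest without young PH 24 h replicate 2. The other age comparisons gave 0 throughout. Of 71 calls of the 14 collagens described by array, 19 passed in every alternative and with every array left out, and 0 changed sign. With quantile normalization repeated, the Col4a1 call in young mice at 48 h against sham was lost. So were the Col14a1 calls against 0 h in old mice at 48 h after PH and in young sham livers. The cause of these changes was not tested.

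No pairing by replicate number was seen. The 84 same-numbered pairs of arrays had a median correlation of deviations of 0.02, and 25 were over 0.1. For 168 differently numbered pairs the median was -0.01, and 42 were over 0.1. With so few arrays in a group these values cannot exclude a pairing. With the replicate block the counts against sham were 0, 2 and 4 in young and 3, 0 and 9 in old mice, and against 0 h 10, 13 and 10 in young and 7, 9 and 8 in old mice.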
